A study of Mus musculus with 13 samples.

Results

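A stretch of 18.26 Mb of mouse chromosome 9, from 28800926 to 47065834 in GRCm38, holds 373 of the 43629 genes in the deposited expression table, and its genes are described below gene by gene. The stretch follows the region of gene amplification defined in Rag2-/-p53-/- lymphomas, whose libraries were not analysed here. DNA copy number of the lymphomas described below was not analysed here. Members were chosen by position and by level, as protein-coding genes of the stretch that reach 10 normalized counts in 3 or more of the 13 libraries. The levels used are those of the libraries compared below, whatever their group. Of its 255 protein-coding genes, 102 met this rule. Ets1, Fli1, Cbl, Kmt2a, Cd3e, Cd3d, Cd3g, H2afx, Chek1 and Ei24 were left out by name, which leaves 92 members.

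The libraries came from single-cell suspensions of 5 Atm-/- thymic lymphomas of strain 129S6/SvEv, 5 thymic lymphomas of Rag2c/c p53-/- mice and 3 thymuses of wild-type (WT) C57BL/6 mice. Rag2c/c mice make only the core of RAG2, without its C-terminal part, and the background of the Rag2c/c p53-/- mice was mixed from C57BL/6 and 129S6/SvEv. Polyadenylated RNA was made into strand-marking libraries, no cell type was sorted, and the WT libraries were re-used from another series. Age and sex are not given in the labels used here. Strain, series and genotype go together, so a difference from WT thymus cannot be told apart among them. Values are normalized counts, and libraries are named by group and replicate number. The p-values measure the spread between these samples.

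Genes of such a stretch share a position, not a pathway. In thymus the interval is known for Thy1, the surface glycoprotein by which mouse T cells are recognised, and for receptors, phosphatases and adaptors that tune lymphocyte signalling. It also holds housekeeping genes of protein folding, N-glycosylation and vesicle coats, genes of adhesion and of sodium channel subunits, and a cluster of olfactory receptor genes that are read in the nose and are mostly silent elsewhere.

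The totals of the 13 columns lie close together, at 19788898 to 21591289, because the values are normalized. The step between low values gives the worth of 1 read, and with it the depth. A read is worth 3.24 in WT thymus 2, 2.29 in Atm-/- lymphoma 2 and 3.38 in Rag2c/c p53-/- lymphoma 2, which corresponds to an estimated 6.67, 9.23 and 6.37 M reads. It is worth 1.88 in Atm-/- lymphoma 4, 1.55 in Atm-/- lymphoma 3 and 1.47 in Rag2c/c p53-/- lymphoma 4, and under 1 in the other libraries. Values of 0 to 3 therefore mean 1 read or none in the shallowest libraries. Members took 0.655 to 0.722% of the total in WT thymus, 0.611 to 0.674% in Atm-/- lymphomas and 0.585 to 0.738% in Rag2c/c p53-/- lymphomas. Some libraries also differ by transcript length. In Rag2c/c p53-/- lymphoma 2, the 46 members with up to 4961 bases of exon have a median log2 deviation of 0.17 from their group means, and the 46 longer members -0.19. Atm-/- lymphoma 2 shows 0.03 and -0.29, while WT thymus 2, also shallow, shows -0.10 and -0.09. Deviations from a group mean tend to balance within the group. Some deeper libraries lean the other way, such as Rag2c/c p53-/- lymphomas 1 (-0.11 and 0.20) and 3 (-0.14 and 0.11) and Atm-/- lymphoma 1 (-0.09 and 0.13). Others do not, such as Rag2c/c p53-/- lymphoma 5 (-0.05 and -0.09) and WT thymus 1 (0.06 and 0.03). Whether the difference goes with depth was not tested. Some members that stand apart in the shallow libraries are named as such below. Others, such as Scn2b, Tmem136, Tbrg1 and Trim29, are given by library alone, where replicate 2 is the shallowest of each group. The part of depth or length in the values of all these members was not tested.

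The filter on low values left 153 protein-coding genes of the interval out, of which 94 are olfactory receptor genes and 111 are listed at 0 in all libraries. Of the 92 members, 72 reach 10 in all 13 libraries. Just inside the rule, Tecta and Arhgap32 reach 10 in the 3 WT thymuses only. With more libraries at 10, Tmem25, Fxyd6, Ddx25, Ttc36 and Olfr920 reach it in lymphomas only. The rule on level thus let these members in through a difference between thymus and lymphoma, and their p-values are to be read with that in mind. Those of their differences that were called were also called with no filter on low values. That fit does not undo how these members were chosen, so it adds no support to their calls. Just outside it, Esam reaches 10 in 2 libraries, with 24 in Atm-/- lymphoma 4 and 15 in Rag2c/c p53-/- lymphoma 3, and Dscaml1 reaches 10 in 2, with 25 and 24 in WT thymuses 1 and 3. By position, the first member is Snx19 at 30427329 and the last is Bud13, which ends at 46298783. The nearest tested gene past the distal end, Cadm1 (47530173 to 47857637), was listed at 71, 62 and 85 in WT thymus, 1525, 119, 676, 263 and 2367 in Atm-/- lymphomas and 695, 84, 133, 344 and 301 in Rag2c/c p53-/- lymphomas. On the proximal side, Ncapd3 (27030175 to 27095311) was at 3417 to 3585 in WT thymus, 3493, 1605, 3117, 3555 and 4173 in Atm-/- lymphomas and 3692, 2617, 4059, 3205 and 3765 in Rag2c/c p53-/- lymphomas, with overlapping groups.

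A member counts as higher or lower where limma gave an adjusted p under 0.05 and a log2 fold change of 1 or more in size, and where either group has a mean of 10 or more. The fold change is on the scale of log2(value + 1), which understates the change of low genes. In Atm-/- lymphomas 10 of the 92 members were higher than in WT thymus (10.9%), where 12.6% of the 15872 tested genes were, and 17 were lower (18.5%, against 17.0% of tested genes). Higher in Rag2c/c p53-/- lymphomas were 10 members (10.9%, against 9.77%) and 10 were lower (10.9%, against 13.9%). Among the 651 tested protein-coding genes on the rest of the chromosome, 12.3% were higher and 17.5% lower in Atm-/- lymphomas, and 12.4% and 13.8% in Rag2c/c p53-/- lymphomas. The members' shares thus lie near those of genes at large, and it is the single genes that are described below. Both comparisons use the same 3 WT thymuses. Without WT thymus 1 the count of members lower in Rag2c/c p53-/- lymphomas was 5, and without WT thymus 3 it was 3. Calls over all tested genes in this comparison, both directions together, fell from 3750 to 2563 and 2505, and Arhgap32 was not tested in either case. Counts by role, marker list and pathway below stand against the shares of tested genes given here.

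Between the lymphoma groups, limma called 0 members higher in Atm-/- than in Rag2c/c p53-/- lymphomas, and 8 were higher at an unadjusted p under 0.05. It called 3.51% of tested genes higher, and 1.23% of the 651 tested protein-coding genes on the rest of the chromosome. Without Atm-/- lymphoma 4 the count of members called higher was 2 (Arhgef12 and Oaf), and without Rag2c/c p53-/- lymphoma 2 it was 2 (Pdzd3 and Nlrx1). The log2 difference of Arhgef12 was 1.44 (adjusted p = 0.12) over all libraries and passed without Atm-/- lymphoma 4 (adjusted p = 0.015), and Oaf stood at 0.98 (adjusted p = 0.12) and passed without Atm-/- lymphoma 4 (log2 1.30, adjusted p = 0.026). Members lower in Atm-/- lymphomas numbered 10 (10.9%, against 4.33% of tested genes and 4.15% on the rest of the chromosome). Leaving out 1 library at a time gave 7 to 11. With the 3 shallowest libraries left out together, an alternative chosen after seeing the data, 5 were lower and 1 was higher. Calls over all tested genes between the lymphoma groups, both directions together, then went from 1244 to 1138. Among the 72 members at 10 or more in every library 5 were lower (6.94%), against 2.66% of the 11486 such genes.

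The median log2 fold change over members was -0.18 in Atm-/- lymphomas (all tested genes -0.02) and -0.05 in Rag2c/c p53-/- lymphomas (-0.02), and between the lymphoma groups it was -0.15 (0.02). Single members ranged from -6.18 to 4.20, from -5.93 to 5.80 and from -3.18 to 2.33 in these comparisons. Within 0.5 of no change were 32 members in Atm-/- lymphomas (34.8%, and 34.8% of all tested genes), 34 in Rag2c/c p53-/- lymphomas (37.0%, and 39.0%) and 60 between the lymphoma groups (65.2%, and 62.0%).

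**Figure D1:**
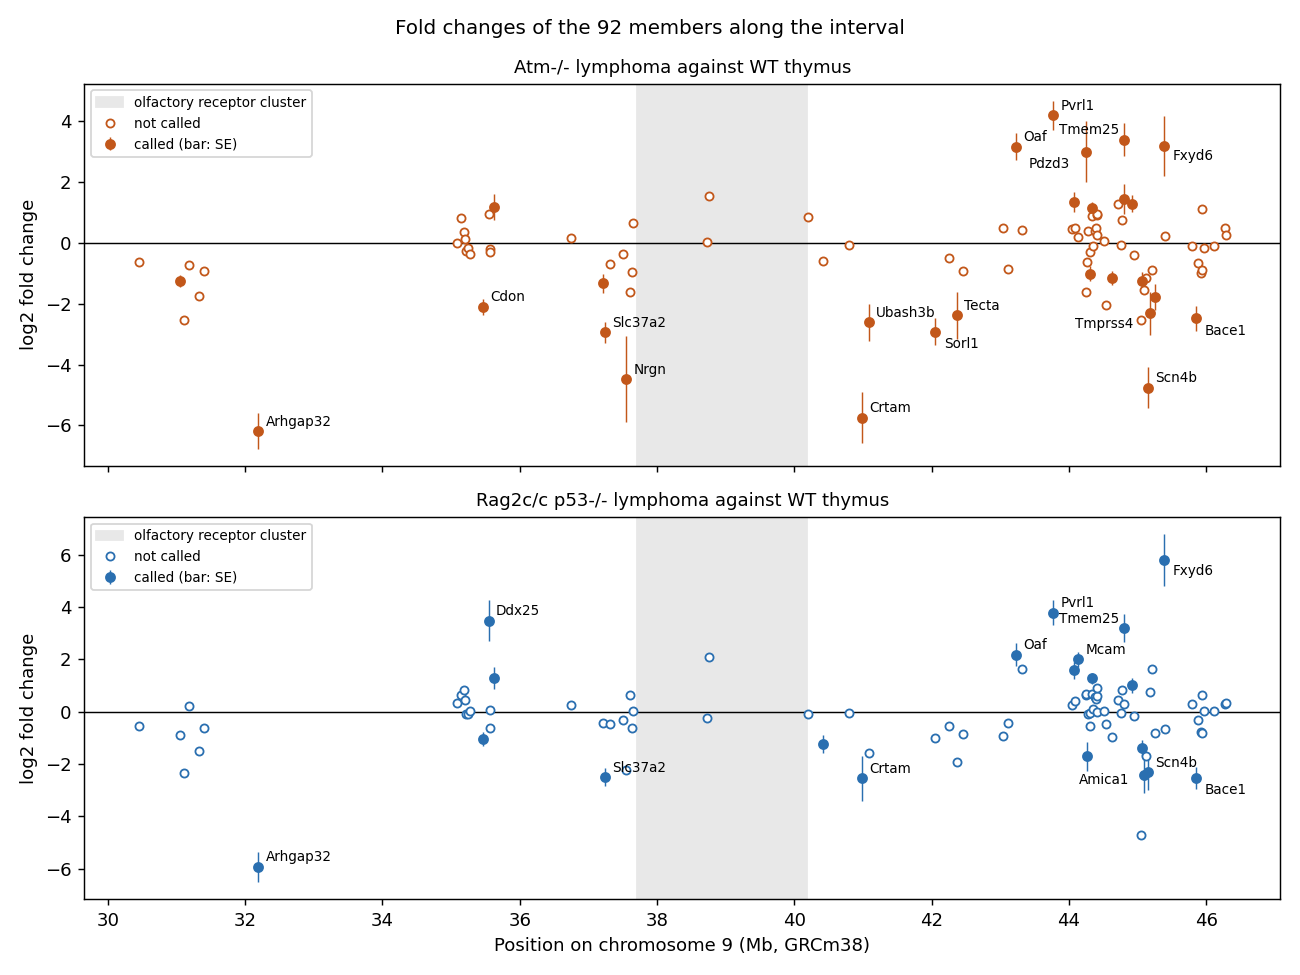
Log2 fold change of each of the 92 members (vertical axis) against its position on chromosome 9 in Mb of GRCm38 (horizontal axis), for Atm-/- lymphomas (top, orange, n = 5) and Rag2c/c p53-/- lymphomas (bottom, blue, n = 5) against the same WT thymuses (n = 3), with filled points for called members, bars for the SE, open points for members not called, names at called members of at least 2 in size, and a grey band for the olfactory receptor cluster. Called members lie on both sides of 0 within a few Mb, as with Pvrl1 at 4.20 and Scn4b at -4.76 in Atm-/- lymphomas.

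Of the 8 members that act at the lymphocyte surface or in its signalling, 3 were lower in Atm-/- lymphomas (37.5%, against 17.0% of tested genes), 3 were lower in Rag2c/c p53-/- lymphomas (37.5%, against 13.9%) and no other was called. Their median log2 fold change was -1.66 and -1.2, where all tested genes had -0.02 in both. Thy1 (ENSMUSG00000032011, 44043384 to 44048579), a membrane glycoprotein of thymocytes, had the highest level of all members per length, 8737 normalized counts per kb of exon over the 13 libraries. It was listed at 16539, 33210 and 16491 normalized counts in WT thymus, 22156, 36435, 32096, 26785 and 27021 in Atm-/- lymphomas and 23318, 40426, 17475, 28644 and 19586 in Rag2c/c p53-/- lymphomas. In each group replicate 2, the shallowest of its group, was the highest, and the groups overlap, with 0.45 (95% confidence interval -0.17 to 1.07) in Atm-/- and 0.25 (95% confidence interval -0.38 to 0.87) in Rag2c/c p53-/- lymphomas as log2 fold changes. The level of this T cell gene therefore did not separate the lymphomas from thymus. Fewer cells of a type and less RNA per cell cannot be told apart in such suspensions.

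Crtam (ENSMUSG00000032021, 40972753 to 41004628), a receptor of activated T and natural killer cells, was listed at 79, 88 and 73 normalized counts in WT thymus, 1, 0, 3, 0 and 0 in Atm-/- lymphomas and 6, 10, 54, 38 and 2 in Rag2c/c p53-/- lymphomas. All 5 Atm-/- lymphomas were at 0 to 3, and the Rag2c/c p53-/- lymphomas spread from 2 to 54, all under the thymuses. It fell by a log2 fold change of -5.74 (SE 0.85, adjusted p = 0.00018) in Atm-/- lymphomas. With pseudocounts of 0.5 and 4 in place of 1 this was -6.45 and -4.16, so its size rests on the pseudocount. The value in Rag2c/c p53-/- lymphomas was -2.55 (SE 0.85, adjusted p = 0.031), a call lost without WT thymus 1, 2 or 3 or Rag2c/c p53-/- lymphoma 1, 2 or 5 (adjusted p = 0.051 to 0.091). The lymphoma groups differed by -3.18 (SE 0.74, adjusted p = 0.014) while their ranges share 2 to 3, and this call was lost with the 3 shallowest libraries left out together (adjusted p = 0.053).

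Il10ra (ENSMUSG00000032089, 45253837 to 45269149), the ligand-binding chain of the interleukin-10 receptor, was at 864, 721 and 915 normalized counts in WT thymus, 264, 212, 209, 306 and 233 in Atm-/- lymphomas and 166, 456, 596, 1108 and 452 in Rag2c/c p53-/- lymphomas. The Atm-/- lymphomas lie in a narrow band under all thymuses, and the Rag2c/c p53-/- lymphomas range from under that band to above the thymuses. It was lower in Atm-/- lymphomas, by -1.77 (SE 0.43, adjusted p = 0.0048). In Rag2c/c p53-/- lymphomas it stood at -0.82 (adjusted p = 0.15) and passed without Rag2c/c p53-/- lymphoma 4 (log2 -1.13, adjusted p = 0.029), and between the lymphoma groups it stood at -0.95 (adjusted p = 0.12) and passed without Rag2c/c p53-/- lymphoma 1 (log2 -1.32, adjusted p = 0.0073). Of 7 genes of the interleukin-10 pathway, 2 were lower in Atm-/- lymphomas, Il10ra and the kinase gene Tyk2 (log2 -1.26 (SE 0.17, adjusted p = 7.8e-05)), and 1, Tyk2, in Rag2c/c p53-/- lymphomas (-1.23 (SE 0.17, adjusted p = 0.00015)). The kinase gene Jak1 stood at -0.91 (adjusted p = 0.024) in Atm-/- lymphomas and passed without Atm-/- lymphoma 1 (log2 -1.07). The other chain of the receptor, Il10rb, was at 0.22 (adjusted p = 0.45) and -0.01 (adjusted p = 0.99), and Il10 itself was at 0 to 3 in 10 libraries and at 285 in Rag2c/c p53-/- lymphoma 4.

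Ubash3b (ENSMUSG00000032020, 41011098 to 41161697), a phosphatase that dampens T cell receptor signalling, was listed at 500, 465 and 525 normalized counts in WT thymus, 134, 34, 43, 75 and 228 in Atm-/- lymphomas and 241, 84, 273, 274 and 85 in Rag2c/c p53-/- lymphomas. Every lymphoma was under every thymus. The log2 fold change was -2.61 (SE 0.60, adjusted p = 0.0036) in Atm-/- and -1.57 (SE 0.60, adjusted p = 0.054) in Rag2c/c p53-/- lymphomas, where it passed without Atm-/- lymphoma 2 or 5 or Rag2c/c p53-/- lymphoma 3 (adjusted p = 0.033 to 0.045). Amica1, a junctional adhesion molecule of leukocytes, was at 236, 201 and 261 normalized counts in WT thymus, 57, 190, 39, 167 and 41 in Atm-/- lymphomas and 21, 30, 34, 182 and 33 in Rag2c/c p53-/- lymphomas. Again all lymphomas lay under the thymuses, with Rag2c/c p53-/- lymphoma 4 far above the other 4 of its group. It was lower in Rag2c/c p53-/- lymphomas by -2.43 (SE 0.69, adjusted p = 0.014), a call lost without WT thymus 1 or 3 (adjusted p = 0.05 to 0.057), and stood at -1.55 (adjusted p = 0.08) in Atm-/- lymphomas, where it passed without Atm-/- lymphoma 2 or Rag2c/c p53-/- lymphoma 4 (adjusted p = 0.031 to 0.039). Nlrx1, a member of the NOD-like receptor family found at mitochondria, was lower in Rag2c/c p53-/- lymphomas (44 to 301, against 356 to 430 in WT thymus) by -1.71 (SE 0.54, adjusted p = 0.025). This call was lost without WT thymus 1, 2 or 3 or Rag2c/c p53-/- lymphoma 5 (adjusted p = 0.055 to 0.089). Nlrx1 stood at 1.08 (adjusted p = 0.16) between the lymphoma groups and passed without Rag2c/c p53-/- lymphoma 2 (adjusted p = 0.048). Tirap, an adaptor of Toll-like receptors, stayed between 23 and 147 in the 13 libraries, with overlapping groups.

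Cxcr5, the receptor for the chemokine Cxcl13 that guides B cells and follicular T cells, was listed at 73, 65 and 81 normalized counts in WT thymus, 40, 21, 20, 6 and 13 in Atm-/- lymphomas and 10, 81, 409, 25 and 44 in Rag2c/c p53-/- lymphomas. The Atm-/- lymphomas were all under the thymuses, and Rag2c/c p53-/- lymphoma 3 was the highest library of all. The log2 fold changes were -2.04 (adjusted p = 0.081) and -0.47 (adjusted p = 0.71), and the first passed without Rag2c/c p53-/- lymphoma 1 or 3 (adjusted p = 0.024 to 0.048). Of 6 B cell markers 4 were lower in Atm-/- lymphomas and 5 in Rag2c/c p53-/- lymphomas. Their summed level was 10193 to 14147 in WT thymus and 4515, 6185, 3217, 27368 and 2324 in Atm-/- lymphomas. In Rag2c/c p53-/- lymphomas the sum was 3893, 1381, 10837, 22361 and 2927, and the most abundant gene was Ighm. No B cell marker was at 0 in a whole group, and Ms4a1 was at 5, 24, 15, 3 and 11 in Rag2c/c p53-/- lymphomas. The part of B cells in the Cxcr5 values was not tested.

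Among the 8 adhesion and guidance members calls went in both directions, and 4 were not called in each comparison with WT thymus. In Atm-/- lymphomas 1 was higher and 3 were lower, and in Rag2c/c p53-/- lymphomas 2 were higher and 2 were lower. Pvrl1 (ENSMUSG00000032012, 43744576 to 43807454) encodes nectin-1, an immunoglobulin-like molecule of cell junctions, and had the largest rise of any member in Atm-/- lymphomas. It was listed at 55, 49 and 55 normalized counts in WT thymus, 644, 523, 2128, 863 and 1528 in Atm-/- lymphomas and 332, 692, 757, 1459 and 903 in Rag2c/c p53-/- lymphomas. All 10 lymphomas lie above all 3 thymuses, and the lymphoma groups overlap. The log2 fold change was 4.20 (SE 0.47, adjusted p = 2.7e-05) in Atm-/- and 3.79 (SE 0.47, adjusted p = 8.8e-05) in Rag2c/c p53-/- lymphomas. These 2 calls remained when any library was left out.

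Mcam (ENSMUSG00000032135, 44134469 to 44142727), an adhesion molecule of endothelium and smooth muscle also called CD146, was at 202, 143 and 218 normalized counts in WT thymus, 150, 228, 259, 299 and 167 in Atm-/- lymphomas and 871, 540, 878, 771 and 693 in Rag2c/c p53-/- lymphomas. All Rag2c/c p53-/- lymphomas stand above all other libraries, and the Atm-/- lymphomas overlap the thymuses. It was higher in Rag2c/c p53-/- lymphomas by 2.0 (SE 0.27, adjusted p = 0.00014), stood at 0.21 (adjusted p = 0.55) in Atm-/- lymphomas, and differed between the lymphoma groups by -1.79 (SE 0.23, adjusted p = 0.00029). Of 6 endothelial markers 4 passed the filter, and 1 was higher and 2 were lower in Rag2c/c p53-/- lymphomas. Plvap, which like Mcam was lower in Atm-/- than in Rag2c/c p53-/- lymphomas (-3.81 (adjusted p = 0.028)), was at 9, 10 and 14 in WT thymus and 161, 311, 140, 144 and 443 in Rag2c/c p53-/- lymphomas, whereas Cdh5 was at 35, 19 and 31 and 5, 0, 7, 4 and 2, and Kdr was at 23, 13 and 46 and 7, 3, 2, 4 and 2. The summed level of the 6 was 3622 to 3729 in WT thymus, 3350 to 6203 in Atm-/- lymphomas and 1964 to 5566 in Rag2c/c p53-/- lymphomas, most of it Pecam1. The part of endothelium in the level of Mcam was not tested.

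Cdon (ENSMUSG00000038119, 35421128 to 35507652), a surface co-receptor for Hedgehog ligands, was listed at 969, 832 and 1045 normalized counts in WT thymus, 224, 130, 188, 333 and 276 in Atm-/- lymphomas and 547, 382, 545, 388 and 454 in Rag2c/c p53-/- lymphomas. The groups form 3 separate bands, highest in WT thymus and lowest in Atm-/- lymphomas. It was lower by -2.10 (SE 0.27, adjusted p = 7e-05) in Atm-/- lymphomas and by -1.04 (SE 0.27, adjusted p = 0.0092) in Rag2c/c p53-/- lymphomas, a call lost without WT thymus 3 (adjusted p = 0.051) and without Rag2c/c p53-/- lymphoma 2 or 4 (log2 -0.98). The difference between the lymphoma groups was -1.06 (SE 0.24, adjusted p = 0.011), lost without Atm-/- lymphoma 2 or Rag2c/c p53-/- lymphoma 1 or 3 (log2 -0.87 to -1.0). Mpzl3, an immunoglobulin-like membrane protein, was at 406 to 472 in WT thymus and 109 to 306 in the lymphomas, lower by -1.26 (SE 0.31, adjusted p = 0.0055) in Atm-/- and -1.40 (SE 0.31, adjusted p = 0.0037) in Rag2c/c p53-/- lymphomas.

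Its relative Mpzl2, an adhesion molecule known from thymic epithelium, was listed at 256, 263 and 268 normalized counts in WT thymus, 3, 18, 9, 980 and 262 in Atm-/- lymphomas and 13, 0, 3, 447 and 3 in Rag2c/c p53-/- lymphomas. The thymuses differ little, while most lymphomas were at 0 to 18 and 3 were at 262 to 980. The log2 fold change was -2.53 (SE 1.89, adjusted p = 0.29) in Atm-/- and -4.72 (SE 1.89, adjusted p = 0.065) in Rag2c/c p53-/- lymphomas, and the second passed without Atm-/- lymphoma 4 or Rag2c/c p53-/- lymphoma 4 (adjusted p = 0.012 to 0.043). Of 6 markers of thymic epithelium, 3 were lower in Atm-/- lymphomas and 4 in Rag2c/c p53-/- lymphomas. The sum was 725 to 1058 in WT thymus, 230, 189, 389, 609 and 452 in Atm-/- lymphomas and 287, 1320, 904, 508 and 1029 in Rag2c/c p53-/- lymphomas. Psmb11 was at 0 in all Atm-/- lymphomas, and Epcam was at 22, 875, 540, 172 and 750 in Rag2c/c p53-/- lymphomas. Atm-/- lymphoma 4 was the highest of its group in Mpzl2 and in this sum, Rag2c/c p53-/- lymphoma 4 was not, and the part of epithelium was not tested.

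Tagln, an actin-binding protein of smooth muscle and fibroblasts, was at 31, 32 and 22 normalized counts in WT thymus, 17, 21, 51, 414 and 114 in Atm-/- lymphomas and 26, 51, 94, 51 and 27 in Rag2c/c p53-/- lymphomas. Atm-/- lymphoma 4 stands apart, and the groups overlap, with 1.12 (adjusted p = 0.29) and 0.65 (adjusted p = 0.57). Phldb1, a protein that links the cell cortex to the extracellular matrix, was at 97 to 112 in WT thymus and at 769, 62, 361, 137 and 485 in Atm-/- lymphomas, with 1.29 (adjusted p = 0.13), and passed without Atm-/- lymphoma 2 (adjusted p = 0.015). It stood at 0.45 (adjusted p = 0.62) in Rag2c/c p53-/- lymphomas. Of 6 fibroblast markers 4 were higher in each lymphoma group. Their sum was 175 to 182 in WT thymus, 5357, 3488, 5012, 15853 and 8413 in Atm-/- lymphomas and 581 to 1945 in Rag2c/c p53-/- lymphomas, with Col1a2 the highest in each Atm-/- lymphoma and none at 0 in a whole group. Atm-/- lymphoma 4 was the highest in Tagln and in the fibroblast sum and the lowest but 1 in Phldb1, and the part of fibroblasts was not tested. Tecta, a matrix protein of the inner ear, was at 13, 10 and 14 in WT thymus and at 0 to 6 in every lymphoma, and it is a member through the thymuses alone, so a fall was built into the choice. It was lower in Atm-/- lymphomas by -2.38 (SE 0.78, adjusted p = 0.025), a call lost without Atm-/- lymphoma 5 (adjusted p = 0.053). In Rag2c/c p53-/- lymphomas it was at -1.93 (adjusted p = 0.067) and passed without Rag2c/c p53-/- lymphoma 1 (adjusted p = 0.05).

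Of the 5 members grouped as ion channels and their subunits, 1 was higher and 2 were lower in Atm-/- lymphomas, and 1 was higher and 1 lower in Rag2c/c p53-/- lymphomas. Scn4b (ENSMUSG00000046480, 45138437 to 45154152), a beta subunit of voltage-gated sodium channels, was listed at 1660, 1260 and 1744 normalized counts in WT thymus, 54, 107, 47, 53 and 38 in Atm-/- lymphomas and 152, 81, 475, 1347 and 343 in Rag2c/c p53-/- lymphomas. The Atm-/- lymphomas form a low band, and Rag2c/c p53-/- lymphoma 4 alone reached the range of the thymuses. Scn4b was lower by -4.76 (SE 0.68, adjusted p = 0.00014) in Atm-/- lymphomas and by -2.32 (SE 0.68, adjusted p = 0.017) in Rag2c/c p53-/- lymphomas, a call lost without WT thymus 1 or 3 (adjusted p = 0.06 to 0.064). The lymphoma groups differed by -2.43 (SE 0.59, adjusted p = 0.017). Its relative Scn2b was at 654, 474 and 659 normalized counts in WT thymus, 219, 1471, 64, 731 and 85 in Atm-/- lymphomas and 166, 111, 131, 382 and 213 in Rag2c/c p53-/- lymphomas. Atm-/- lymphomas fall on both sides of the thymuses (-1.15 (adjusted p = 0.27)), and all 5 Rag2c/c p53-/- lymphomas lie under them (-1.69 (adjusted p = 0.13)). The latter difference passed when only the groups compared were fitted (adjusted p = 0.0084).

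Fxyd6 (ENSMUSG00000066705, 45370185 to 45396158), a regulator of the sodium pump and a member through the lymphomas alone, was listed at 1, 0 and 1 normalized counts in WT thymus, 1, 7, 25, 45 and 33 in Atm-/- lymphomas and 163, 27, 42, 302 and 89 in Rag2c/c p53-/- lymphomas. WT thymus was at 0 or 1, all Rag2c/c p53-/- lymphomas were above it, and Atm-/- lymphoma 1 was not. The log2 fold change was 5.80 (SE 0.99, adjusted p = 0.00068) in Rag2c/c p53-/- lymphomas, and 6.40 and 4.32 with pseudocounts of 0.5 and 4. In Atm-/- lymphomas it was 3.20 (SE 0.99, adjusted p = 0.018), and 3.69 and 2.08 with these pseudocounts, and the call was lost without WT thymus 2 (adjusted p = 0.072). The lymphoma groups stood -2.60 (adjusted p = 0.065) apart, which passed without Rag2c/c p53-/- lymphoma 2 (adjusted p = 0.04). Fxyd2, the gamma subunit of the sodium pump, was at 87 to 101 in WT thymus and at 117, 3, 68, 172 and 126 in Rag2c/c p53-/- lymphomas, of which lymphoma 2, a shallow library, was at 1 read. Nrgn, the calmodulin-binding protein neurogranin, was at 357, 419 and 353 normalized counts in WT thymus, 182, 27, 8, 4 and 5 in Atm-/- lymphomas and 31, 378, 631, 90 and 4 in Rag2c/c p53-/- lymphomas. All Atm-/- lymphomas lie under the thymuses and 3 of them are at 4 to 8, whereas Rag2c/c p53-/- lymphomas 2 and 3 reach or pass the thymuses. It was lower in Atm-/- lymphomas by -4.48 (SE 1.42, adjusted p = 0.021), a call lost without WT thymus 1, 2 or 3 (adjusted p = 0.06 to 0.062), and stood at -2.22 (adjusted p = 0.24) in Rag2c/c p53-/- lymphomas.

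Of the 7 hydrolases and secreted proteins, 1 was higher and 2 were lower in Atm-/- lymphomas, and 1 was higher and 1 lower in Rag2c/c p53-/- lymphomas. Oaf (ENSMUSG00000032014, 43221278 to 43239816), a secreted protein, was listed at 119, 81 and 96 normalized counts in WT thymus, 1465, 651, 921, 359 and 1693 in Atm-/- lymphomas and 474, 375, 459, 760 and 287 in Rag2c/c p53-/- lymphomas. Every lymphoma was above every thymus, Atm-/- lymphoma 4 least among its group. The rise was 3.17 (SE 0.44, adjusted p = 0.00012) in Atm-/- and 2.19 (SE 0.44, adjusted p = 0.0021) in Rag2c/c p53-/- lymphomas. Bace1 (ENSMUSG00000032086, 45838580 to 45864399), the beta-secretase that cuts the amyloid precursor protein, was at 350, 322 and 318 normalized counts in WT thymus, 128, 46, 50, 60 and 38 in Atm-/- lymphomas and 56, 30, 75, 90 and 48 in Rag2c/c p53-/- lymphomas. All lymphomas lie under all thymuses in an overlapping low band, lower by -2.48 (SE 0.42, adjusted p = 0.0005) and -2.54 (SE 0.42, adjusted p = 0.0006). Bace1 shares 975 exon bases with Rnf214 on the other strand, and Rnf214 was at 662 to 1296 in the 13 libraries.

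Tmprss4 (ENSMUSG00000032091, 45172726 to 45204092), a membrane serine protease of epithelia, was listed at 144, 94 and 129 normalized counts in WT thymus, 6, 30, 42, 55 and 16 in Atm-/- lymphomas and 103, 729, 116, 175 and 230 in Rag2c/c p53-/- lymphomas. Atm-/- lymphomas were under all thymuses and all Rag2c/c p53-/- lymphomas, and Rag2c/c p53-/- lymphoma 2, a shallow library, was the highest. Between the lymphoma groups the difference was -3.06 (SE 0.60, adjusted p = 0.0057). Against WT thymus it was -2.31 (SE 0.70, adjusted p = 0.016) in Atm-/- lymphomas, a call lost without WT thymus 1 or 3 (adjusted p = 0.057 to 0.063), and 0.75 (adjusted p = 0.41) in Rag2c/c p53-/- lymphomas. St14, the epithelial protease matriptase, was at 45 to 61 in WT thymus, 12, 0, 11, 24 and 19 in Atm-/- lymphomas and 5, 3, 19, 43 and 6 in Rag2c/c p53-/- lymphomas. All lymphomas were under all thymuses, with -2.54 (adjusted p = 0.05) and -2.35 (adjusted p = 0.075). It passed in Atm-/- lymphomas without Atm-/- lymphoma 4 or 5 or Rag2c/c p53-/- lymphoma 2 or 4 (adjusted p = 0.038 to 0.046) and in Rag2c/c p53-/- lymphomas without Atm-/- lymphoma 2 or Rag2c/c p53-/- lymphoma 4 (adjusted p = 0.016 to 0.037). The thymic epithelium sum given above was lower than in WT thymus in all Atm-/- lymphomas and in Rag2c/c p53-/- lymphomas 1 and 4. Of its 6 markers, Foxn1, Krt8, Krt5 and Psmb11 were under all thymuses in every Rag2c/c p53-/- lymphoma. Epcam (22, 875, 540, 172 and 750) and Ccl25 (227, 429, 281, 297 and 240) were not, and they made up most of the sum there. The part of epithelium here was not tested.

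The other 3 of these members are widely expressed and passed the adjusted p without a fold change of 1 in some comparison. Siae, which removes acetyl groups from sialic acids, was at 585 to 711 in WT thymus and 284 to 492 in the lymphomas, with -0.94 (adjusted p = 0.0013) and -0.64 (adjusted p = 0.016), and passed in Atm-/- lymphomas without WT thymus 2 (log2 -1.02). Pcsk7, a proprotein convertase, was at -0.97 (adjusted p = 0.0003) and -0.76 (adjusted p = 0.0022), with all lymphomas under all thymuses. Aplp2, a relative of the amyloid precursor protein, was at 922, 610, 1207, 801 and 1249 in Atm-/- lymphomas and 2509, 1445, 1261, 2493 and 1624 in Rag2c/c p53-/- lymphomas. Against WT thymus it was at -0.73 (adjusted p = 0.04) in Atm-/- lymphomas, all under the thymuses. The lymphoma groups did not overlap, by -0.95 (adjusted p = 0.019), and Aplp2 passed without Atm-/- lymphoma 3 or 5 or Rag2c/c p53-/- lymphoma 2 or 3 (log2 -1.03 to -1.08).

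The 14 members of protein folding, glycosylation and vesicle traffic held 5 of the 10 members with the highest mean, and 12 of them were called in no comparison. Hspa8 (ENSMUSG00000015656, 40800984 to 40805200), the constitutive HSP70 chaperone, was listed at 13828, 24442 and 15396 normalized counts in WT thymus, 12987, 19776, 19382, 16546 and 15220 in Atm-/- lymphomas and 13339, 23266, 13645, 22884 and 13668 in Rag2c/c p53-/- lymphomas. Replicate 2 was the highest library of each group, and the log2 fold changes were -0.06 (95% confidence interval -0.60 to 0.47) and -0.05 (95% confidence interval -0.58 to 0.49). Hyou1, an HSP70 relative of the endoplasmic reticulum, was at 3080 to 3568 in WT thymus and 3661 to 5780 in the lymphomas, with 0.38 (adjusted p = 0.055) and 0.57 (adjusted p = 0.01). Among 16 genes of the HSP70 family and its partners on any chromosome, 2 were higher and 2 lower in Atm-/- lymphomas, and 2 were higher and 1 lower in Rag2c/c p53-/- lymphomas. Hspa2 was higher in both (log2 1.98 and 1.81), and Hspa4l was lower in both (-1.46 and -1.87). Hsp90ab1 was higher in Atm-/- lymphomas (1.19 (SE 0.26, adjusted p = 0.0023)), and passed in Rag2c/c p53-/- lymphomas without WT thymus 2 or Rag2c/c p53-/- lymphoma 1 or 3 (log2 1.0 to 1.16). Dnajb1 was lower in Atm-/- lymphomas (-1.13 (SE 0.17, adjusted p = 0.00022)), a call lost without WT thymus 2 (log2 -0.99). The inducible Hspa1a was higher in Rag2c/c p53-/- lymphomas (2.14 (SE 0.76, adjusted p = 0.041)), lost without WT thymus 1 or 2 or Rag2c/c p53-/- lymphoma 3, 4 or 5 (adjusted p = 0.058 to 0.19). Between the lymphoma groups Hspa1a was lower in Atm-/- by -2.90 (SE 0.66, adjusted p = 0.013) and Hspa1b by -2.07 (SE 0.53, adjusted p = 0.024), the latter lost without Atm-/- lymphoma 1 or 4 or Rag2c/c p53-/- lymphoma 5 (adjusted p = 0.058 to 0.06).

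Dpagt1, which starts the dolichol-linked sugar chain of N-glycosylation, was at 729, 594 and 621 normalized counts in WT thymus, 1077, 1144, 1351, 1089 and 1319 in Atm-/- lymphomas and 1143, 1125, 890, 928 and 1110 in Rag2c/c p53-/- lymphomas. All lymphomas were above all thymuses, at 0.88 (adjusted p = 0.00045) and 0.68 (adjusted p = 0.0034), under the fold change threshold. Stt3a, a catalytic subunit of the oligosaccharyltransferase, was at 2950 to 3324 in WT thymus and 2622 to 4330 in the lymphomas, with 0.15 (adjusted p = 0.48) and 0.25 (adjusted p = 0.24). Of 22 genes of this pathway, 1 was higher in Atm-/- lymphomas and 3 in Rag2c/c p53-/- lymphomas. Alg3 was higher in both (1.28 and 1.09), and Ddost was higher in Rag2c/c p53-/- lymphomas (1.15). Alg6 was higher in Rag2c/c p53-/- lymphomas (1.53), stood at 0.98 (adjusted p = 0.0078) in Atm-/- lymphomas and passed there without WT thymus 1 or 3 or Atm-/- lymphoma 1, 2 or 4 (log2 1.0 to 1.13). Alg8 was lower in Atm-/- than in Rag2c/c p53-/- lymphomas (-1.37 (SE 0.14, adjusted p = 3.9e-05)).

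Arcn1 (ENSMUSG00000032096, 44741564 to 44767845), the delta subunit of the coatomer that coats vesicles between Golgi and endoplasmic reticulum, was among the steadiest members. It was listed at 5225, 5380 and 5280 normalized counts in WT thymus, 5320, 3900, 5636, 5238 and 5510 in Atm-/- lymphomas and 6223, 4387, 5179, 5104 and 4896 in Rag2c/c p53-/- lymphomas. The shallow lymphomas Atm-/- 2 and Rag2c/c p53-/- 2 were the lowest, at 3900 and 4387, and the log2 fold changes were -0.06 (95% confidence interval -0.38 to 0.26) and -0.05 (95% confidence interval -0.36 to 0.27). Over the 9 coatomer genes the median log2 fold change was 0.08 in Atm-/- lymphomas and -0.03 in Rag2c/c p53-/- lymphomas, where all tested genes had -0.02. Srpr, the receptor for the signal recognition particle, Vps11, a subunit of vacuolar tethering complexes, Trappc4, a subunit of the TRAPP tethering complex, and the sialyltransferase St3gal4 had log2 fold changes between -0.27 and 0.35 against WT thymus. Slc37a4, the glucose-6-phosphate transporter of the endoplasmic reticulum, was at 0.49 and 0.50 with overlapping groups. Snx19, a sorting nexin, was at -0.61 (adjusted p = 0.04) and -0.54 (adjusted p = 0.073).

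The 2 members of this group that fell in Atm-/- lymphomas were Slc37a2 and Sorl1. Slc37a2 (ENSMUSG00000032122, 37229149 to 37255738), a sugar phosphate exchanger of the endoplasmic reticulum, was listed at 2091, 1709 and 1964 normalized counts in WT thymus, 271, 315, 172, 256 and 253 in Atm-/- lymphomas and 594, 263, 461, 157 and 389 in Rag2c/c p53-/- lymphomas. Each lymphoma was under every thymus, lower by -2.94 (SE 0.35, adjusted p = 4e-05) in Atm-/- and -2.50 (SE 0.35, adjusted p = 0.0002) in Rag2c/c p53-/- lymphomas. Both calls remained when any library was left out. Sorl1 (ENSMUSG00000049313, 41964720 to 42124297), a sorting receptor between Golgi and endosome, was at 1245, 1027 and 1346 normalized counts in WT thymus, 215, 226, 126, 173 and 92 in Atm-/- lymphomas and 226, 669, 729, 1277 and 537 in Rag2c/c p53-/- lymphomas. Atm-/- lymphomas were under all thymuses, and the highest Rag2c/c p53-/- lymphoma, number 4, was within the range of the thymuses. The fall was -2.92 (SE 0.44, adjusted p = 0.00022) in Atm-/- lymphomas, and the difference between the lymphoma groups was -1.91 (SE 0.38, adjusted p = 0.0065). Sorl1 was at -1.0 (adjusted p = 0.09) in Rag2c/c p53-/- lymphomas and passed without Rag2c/c p53-/- lymphoma 4 (log2 -1.28, adjusted p = 0.03). Sidt2, a lysosomal membrane protein and the fourth most abundant member per length (1007 per kb of exon over all libraries), was at 7336 to 8661 in WT thymus and 3405 to 5754 in the lymphomas. It was under the fold change threshold at -0.89 (adjusted p = 0.0015) and -0.83 (adjusted p = 0.003).

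Atp5l was higher in both lymphoma groups among members of lipid and mitochondrial metabolism. It codes for a subunit of mitochondrial ATP synthase and was at 405, 396 and 360 normalized counts in WT thymus, 789, 1238, 1052, 1030 and 728 in Atm-/- lymphomas and 723, 1425, 505, 902 and 622 in Rag2c/c p53-/- lymphomas. All lymphomas were above all thymuses, by 1.29 (SE 0.28, adjusted p = 0.0027) and 1.01 (SE 0.28, adjusted p = 0.014), and the highest lymphoma of each group was replicate 2, a shallow library. The second call was lost without WT thymus 3 (adjusted p = 0.058) and without Rag2c/c p53-/- lymphoma 2 or 4 (log2 0.80 to 0.96). Gramd1b, a sterol transfer protein of the endoplasmic reticulum, was at 1253 to 1395 in WT thymus, 1750, 635, 447, 998 and 962 in Atm-/- lymphomas and 633, 476, 790, 447 and 487 in Rag2c/c p53-/- lymphomas. It was lower in the latter by -1.24 (SE 0.34, adjusted p = 0.013), a call lost without WT thymus 3 (adjusted p = 0.053), and overlapped the thymuses in Atm-/- lymphomas (-0.60 (adjusted p = 0.17)). Sc5d, a late enzyme of cholesterol synthesis, was under the thymuses in all 10 lymphomas, at -0.49 (adjusted p = 0.062) and -0.56 (adjusted p = 0.043). Of 18 genes of cholesterol synthesis 4 were higher in Atm-/- lymphomas and 6 in Rag2c/c p53-/- lymphomas. Sqle, Mvd and Mvk were higher in both, with Sqle at 1.74 and 1.86. Foxred1, which assembles respiratory complex I, was at 0.13 (adjusted p = 0.52) and 0.46 (adjusted p = 0.031). Pafah1b2 had -0.16 (95% confidence interval -0.40 to 0.07) and 0.02 (95% confidence interval -0.22 to 0.26), and Abcg4, a sterol exporter, was at 4 to 30 in the 13 libraries. C2cd2l, a lipid transfer protein, was at -0.31 (adjusted p = 0.21) and -0.04 (adjusted p = 0.88).

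Usp2 (ENSMUSG00000032010, 44067021 to 44095627), a deubiquitinating protease, rose in both lymphoma groups and was the called gene among 5 members of the ubiquitin pathway. It was listed at 309, 302 and 313 normalized counts in WT thymus, 529, 1340, 858, 1100 and 447 in Atm-/- lymphomas and 788, 925, 840, 1346 and 828 in Rag2c/c p53-/- lymphomas. The thymuses lie within 302 to 313, and all lymphomas are above them, by 1.35 (SE 0.32, adjusted p = 0.0041) and 1.59 (SE 0.32, adjusted p = 0.0019). Trim29, which is known from squamous epithelium, was at 46, 36 and 42 normalized counts in WT thymus, 36, 9, 146, 105 and 104 in Atm-/- lymphomas and 48, 365, 131, 97 and 171 in Rag2c/c p53-/- lymphomas. It was above the thymuses in all Rag2c/c p53-/- lymphomas, of which lymphoma 2 was the highest, at 1.65 (adjusted p = 0.12), and passed without Atm-/- lymphoma 2 (adjusted p = 0.038). Rnf26, a ligase of the endoplasmic reticulum, was at 0.48 (adjusted p = 0.05) and 0.40 (adjusted p = 0.11), Ube4a, which extends ubiquitin chains, at -0.41 (adjusted p = 0.13) and -0.18 (adjusted p = 0.55), and Rnf214 at -0.65 (adjusted p = 0.0091) and -0.33 (adjusted p = 0.15).

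Of the 17 members of transcription, chromatin and RNA, 3 were lower in Atm-/- lymphomas and 1 was higher in Rag2c/c p53-/- lymphomas. Zbtb44, a zinc finger protein, was listed at 2729, 2472 and 2807 normalized counts in WT thymus, 1309, 884, 1214, 1169 and 1085 in Atm-/- lymphomas and 1637, 1253, 1604, 1005 and 1885 in Rag2c/c p53-/- lymphomas. Every lymphoma was under every thymus, by -1.25 (SE 0.20, adjusted p = 0.00028) in Atm-/- lymphomas and -0.89 (adjusted p = 0.0036) in Rag2c/c p53-/- lymphomas, under the fold change threshold. Ddx6, an RNA helicase of P bodies, was at 5959, 3300, 4474, 4762 and 5622 in Atm-/- lymphomas and 7308, 3796, 6749, 4338 and 5210 in Rag2c/c p53-/- lymphomas, all under the thymuses, at -1.14 (SE 0.23, adjusted p = 0.0016) and -0.97 (adjusted p = 0.0056). The second passed without WT thymus 2 or Rag2c/c p53-/- lymphoma 1 or 3 (log2 -1.04 to -1.09). Of 11 listed genes of mRNA decapping and P bodies, 2 were lower in Atm-/- lymphomas, Ddx6 and the exonuclease gene Xrn1 (-1.61 (SE 0.23, adjusted p = 0.00017)), and 1, Xrn1 (-1.44 (SE 0.23, adjusted p = 0.00052)), in Rag2c/c p53-/- lymphomas. Dcps, the scavenger enzyme of the cap, went the other way, from 832 to 966 in WT thymus to 1003 to 2128 in the lymphomas, at 0.81 (adjusted p = 0.0085) and 0.63 (adjusted p = 0.036). Hinfp, a regulator of histone gene transcription named because it was called, was lower in Atm-/- lymphomas by -1.01 (SE 0.24, adjusted p = 0.0045), a call lost without WT thymus 3 or Atm-/- lymphoma 2, 3 or 4 (log2 -0.94 to -1.0).

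Ddx25 (ENSMUSG00000032101, 35541847 to 35558528), an RNA helicase of germ cells, was listed at 6, 3 and 6 normalized counts in WT thymus, 3, 9, 31, 11 and 11 in Atm-/- lymphomas and 39, 243, 20, 40 and 136 in Rag2c/c p53-/- lymphomas. WT thymus was at 3 to 6, and all Rag2c/c p53-/- lymphomas were above it, with lymphoma 2, a shallow library, and lymphoma 5 the highest. It was higher by 3.48 (SE 0.79, adjusted p = 0.0041), and by 3.60 and 2.96 with pseudocounts of 0.5 and 4. Ddx25 is a member through the lymphomas alone, so a rise was built into the choice. The difference between the lymphoma groups was -2.52 (SE 0.68, adjusted p = 0.03), a call lost without Atm-/- lymphoma 1, 4 or 5 or Rag2c/c p53-/- lymphoma 2 or 5 (adjusted p = 0.052 to 0.073). Rps25, a ribosomal protein, was at 3730, 6039 and 3641 normalized counts in WT thymus, 6317, 11130, 8547, 9837 and 6353 in Atm-/- lymphomas and 4988, 13188, 5084, 6957 and 5399 in Rag2c/c p53-/- lymphomas, highest in replicate 2 of each group. It stood at 0.92 (adjusted p = 0.029) in Atm-/- lymphomas and passed without WT thymus 2 or Atm-/- lymphoma 1 or 5 (log2 1.01 to 1.16). Ccdc84, a splicing factor, shares 206 exon bases with Rps25 on the other strand and was above the thymuses in all lymphomas, at 0.95 (adjusted p = 0.0018) and 0.92 (adjusted p = 0.0029). It passed in Atm-/- lymphomas without WT thymus 2 (log2 1.01) and in Rag2c/c p53-/- lymphomas without Rag2c/c p53-/- lymphoma 5 (log2 1.01). Near-identical copies elsewhere in the genome may make the levels of Rps25, Hspa8 and Atp5l uncertain, which was not tested.

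Prdm10, a zinc finger protein, was at 627, 659 and 801 normalized counts in WT thymus, 375, 57, 220, 237 and 336 in Atm-/- lymphomas and 570, 51, 446, 187 and 332 in Rag2c/c p53-/- lymphomas. The shallow lymphomas Atm-/- 2 and Rag2c/c p53-/- 2 were the lowest at 57 and 51, and all lymphomas were under the thymuses, at -1.74 (adjusted p = 0.061) and -1.52 (adjusted p = 0.11). It passed in Atm-/- lymphomas without Rag2c/c p53-/- lymphoma 2 (adjusted p = 0.017). Nfrkb, a subunit of the INO80 remodelling complex, was also under the thymuses in all lymphomas, at -0.91 (adjusted p = 0.0062) and -0.61 (adjusted p = 0.051). Tbrg1, a growth regulator, was above the thymuses in Atm-/- lymphomas (3207, 4300, 4239, 4413 and 2714, against 2254, 2560 and 2303) at 0.65 (adjusted p = 0.03). It overlapped them in Rag2c/c p53-/- lymphomas, where lymphoma 2 was at 3840 and the others at 1915 to 2375. Zpr1 and Bud13, which act in growth signalling and splicing, were above the thymuses in all lymphomas by less than 0.5, with Zpr1 at 0.49 (adjusted p = 0.0053) in Atm-/- lymphomas. The pseudouridine synthases Pus3 and Rpusd4, the coactivator Bcl9l and Msantd2 had log2 fold changes within 0.5 of 0 in both groups. Zfp202, a zinc finger repressor, was at 0.86 (adjusted p = 0.093) and -0.09 (adjusted p = 0.88). Pus3 shares 2618 exon bases with Hyls1 on the other strand, so their reads may not be separate.

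Arhgap32 (ENSMUSG00000041444, 32116136 to 32268446), a GTPase-activating protein, is a member through its level in the thymuses alone, so a fall was built into the choice. It was listed at 183, 156 and 280 normalized counts in WT thymus, 2, 2, 2, 2 and 1 in Atm-/- lymphomas and 2, 0, 7, 3 and 3 in Rag2c/c p53-/- lymphomas. The lymphomas lie at 0 to 7, far under the thymuses. The log2 fold change was -6.18 (SE 0.58, adjusted p = 6.3e-06) in Atm-/- and -5.93 (SE 0.58, adjusted p = 1.7e-05) in Rag2c/c p53-/- lymphomas. Both calls were also made with no filter on low values, which does not undo the choice of this gene. With pseudocounts of 0.5 and 4 it was -6.47 and -5.14, and -6.28 and -4.94. Arhgap32 and Tecta fall under the filter when a thymus is left out, and Tecta also under other scalings, and were then not tested. Arhgef12, a guanine nucleotide exchange factor, was at 169, 127 and 180 normalized counts in WT thymus, 383, 461, 209, 51 and 290 in Atm-/- lymphomas and 80, 57, 85, 228 and 40 in Rag2c/c p53-/- lymphomas. Both lymphoma groups have libraries above and under the thymuses. Sik3, a salt-inducible kinase, was at 2346 to 2703 in WT thymus and 1772 to 4148 in the lymphomas, with -0.09 (95% confidence interval -0.57 to 0.39) and 0.01 (95% confidence interval -0.47 to 0.49).

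Of the 8 members of cilium and cytoskeleton, 1 was lower in Atm-/- lymphomas, and in Rag2c/c p53-/- lymphomas the log2 fold changes lay between -0.87 and 0.85 and none passed all thresholds. Tmem218, a protein of the base of the cilium, was at 178, 185 and 167 normalized counts in WT thymus, 82, 103, 50, 62 and 63 in Atm-/- lymphomas and 213, 135, 124, 97 and 105 in Rag2c/c p53-/- lymphomas. All Atm-/- lymphomas were under all thymuses, by -1.33 (SE 0.32, adjusted p = 0.0048), and Rag2c/c p53-/- lymphomas overlapped both. Between the lymphoma groups it stood at -0.88 (adjusted p = 0.055) and passed without Atm-/- lymphoma 2 (log2 -1.02, adjusted p = 0.029). Ift46, a subunit of intraflagellar transport, was at 769 to 864 in WT thymus and 1062 to 1959 in the lymphomas, all above the thymuses, at 0.75 (adjusted p = 0.0038) and 0.85 (adjusted p = 0.0023). Tbcel, a regulator of tubulin, was under the thymuses in all lymphomas, at -0.91 (adjusted p = 0.012) and -0.87 (adjusted p = 0.018), and passed in Atm-/- lymphomas without Atm-/- lymphoma 2 (log2 -1.03) and in Rag2c/c p53-/- lymphomas without Rag2c/c p53-/- lymphoma 1 (log2 -1.05). Hyls1 and Cep164, of the centriole, were at -0.63 (adjusted p = 0.011) and 0.29 (adjusted p = 0.16) in Rag2c/c p53-/- lymphomas, and Ccdc15 at -0.47 (adjusted p = 0.21).

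Of these members 2 were lower in Atm-/- than in Rag2c/c p53-/- lymphomas. Ccdc153, a coiled-coil protein, was at 365, 283 and 287 normalized counts in WT thymus, 71, 46, 516, 58 and 106 in Atm-/- lymphomas and 412, 969, 191, 396 and 853 in Rag2c/c p53-/- lymphomas. Of the Atm-/- lymphomas 4 were at 46 to 106, under all other libraries, and lymphoma 3 was at 516. The difference was -2.24 (SE 0.59, adjusted p = 0.027), a call lost without Atm-/- lymphoma 1, 2 or 4 or Rag2c/c p53-/- lymphoma 2 or 5 (adjusted p = 0.054 to 0.066). Against WT thymus Ccdc153 stood at -1.61 (adjusted p = 0.071) in Atm-/- lymphomas and passed without Atm-/- lymphoma 3 (adjusted p = 0.004). Spa17, a sperm protein also present in motile cilia, was at 13, 19 and 9 normalized counts in WT thymus, 8, 7, 5, 0 and 4 in Atm-/- lymphomas and 23, 34, 15, 41 and 8 in Rag2c/c p53-/- lymphomas. The lymphoma groups touch at 8, and the difference was -2.24 (SE 0.62, adjusted p = 0.034), with -2.49 and -1.62 at pseudocounts of 0.5 and 4. This call was lost without WT thymus 1, Atm-/- lymphoma 4 or 5 or Rag2c/c p53-/- lymphoma 1, 2 or 4 (adjusted p = 0.052 to 0.072). Of the exon bases of Spa17, 391 (36.9%) are shared with Siae on the other strand, and Siae was at 284 to 711 in the 13 libraries.

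The 9 members with no role assigned held 4 of the 10 members that were higher in Atm-/- lymphomas. Tmem25 (ENSMUSG00000002032, 44793776 to 44799307), an immunoglobulin-like membrane protein and also a member through the lymphomas alone, was listed at 3, 0 and 2 normalized counts in WT thymus, 42, 14, 22, 24 and 21 in Atm-/- lymphomas and 11, 17, 35, 22 and 21 in Rag2c/c p53-/- lymphomas. WT thymus was at 0 to 3 and all lymphomas were at 11 to 42, by 3.40 (SE 0.54, adjusted p = 0.0003) in Atm-/- and 3.19 (SE 0.54, adjusted p = 0.00067) in Rag2c/c p53-/- lymphomas. With pseudocounts of 0.5 and 4 these were 3.85 and 2.30, and 3.63 and 2.12. Pdzd3, a scaffold protein with PDZ domains, was at 37, 26 and 34 normalized counts in WT thymus, 279, 194, 212, 275 and 402 in Atm-/- lymphomas and 10, 551, 95, 68 and 9 in Rag2c/c p53-/- lymphomas. All Atm-/- lymphomas were above all thymuses, and the Rag2c/c p53-/- lymphomas spread from 9 to 551, with lymphoma 2, a shallow library, the highest. It was higher in Atm-/- lymphomas by 3.0 (SE 1.0, adjusted p = 0.026), a call lost without WT thymus 1, 2 or 3 (adjusted p = 0.063 to 0.079), and between the lymphoma groups it stood at 2.33 (adjusted p = 0.1) and passed without Rag2c/c p53-/- lymphoma 2 (adjusted p = 0.0068).

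Pate2, known from prostate and testis, was at 28 to 36 in WT thymus and 45 to 148 in the lymphomas, all above the thymuses. It was higher by 1.19 (SE 0.42, adjusted p = 0.034) in Atm-/- lymphomas, lost without WT thymus 1, 2 or 3 or Atm-/- lymphoma 2 or 4 (adjusted p = 0.059 to 0.11). In Rag2c/c p53-/- lymphomas the value was 1.28 (SE 0.42, adjusted p = 0.029), lost without WT thymus 1, 2 or 3 or Rag2c/c p53-/- lymphoma 2 or 5 (adjusted p = 0.05 to 0.11). Ttc36, a member through the lymphomas alone, was at 5 to 6 in WT thymus and 15, 9, 14, 36 and 16 in Atm-/- lymphomas. A rise was thus built into its choice. It was higher by 1.45 (SE 0.50, adjusted p = 0.03), and the call was lost without WT thymus 1, 2 or 3 or Atm-/- lymphoma 4 (adjusted p = 0.063 to 0.099). BC049352 was at 34, 26 and 28 normalized counts in WT thymus, 8, 14, 23, 17 and 19 in Atm-/- lymphomas and 55, 476, 46, 63 and 87 in Rag2c/c p53-/- lymphomas. The 3 groups form separate bands, lowest in Atm-/- and highest in Rag2c/c p53-/- lymphomas, of which lymphoma 2, a shallow library, was far above the others. The span of BC049352 (45182007 to 45250020) overlaps that of Tmprss4 (45172726 to 45204092) on the other strand. Tmprss4 was also highest in that library, and whether the reads of these genes are separate was not tested. The difference between the lymphoma groups was -2.51 (SE 0.56, adjusted p = 0.011). Against WT thymus BC049352 was at 1.63 (adjusted p = 0.061) in Rag2c/c p53-/- lymphomas and passed without Rag2c/c p53-/- lymphoma 1 or 3 (adjusted p = 0.04 to 0.049). Olfr920, the olfactory receptor gene among the members, was also let in through the lymphomas alone. It was listed at 2, 0 and 2 normalized counts in WT thymus, 13, 16, 3, 2 and 2 in Atm-/- lymphomas and 11, 34, 3, 4 and 6 in Rag2c/c p53-/- lymphomas. It stood at 2.11 (adjusted p = 0.059) in Rag2c/c p53-/- lymphomas and passed without Atm-/- lymphoma 2 or Rag2c/c p53-/- lymphoma 3 (adjusted p = 0.042 to 0.047). Tmem136 was at 178 in Atm-/- lymphoma 2 and at 0 to 51 elsewhere, and Fam118b and Vwa5a overlapped between all groups.

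**Figure D2:**
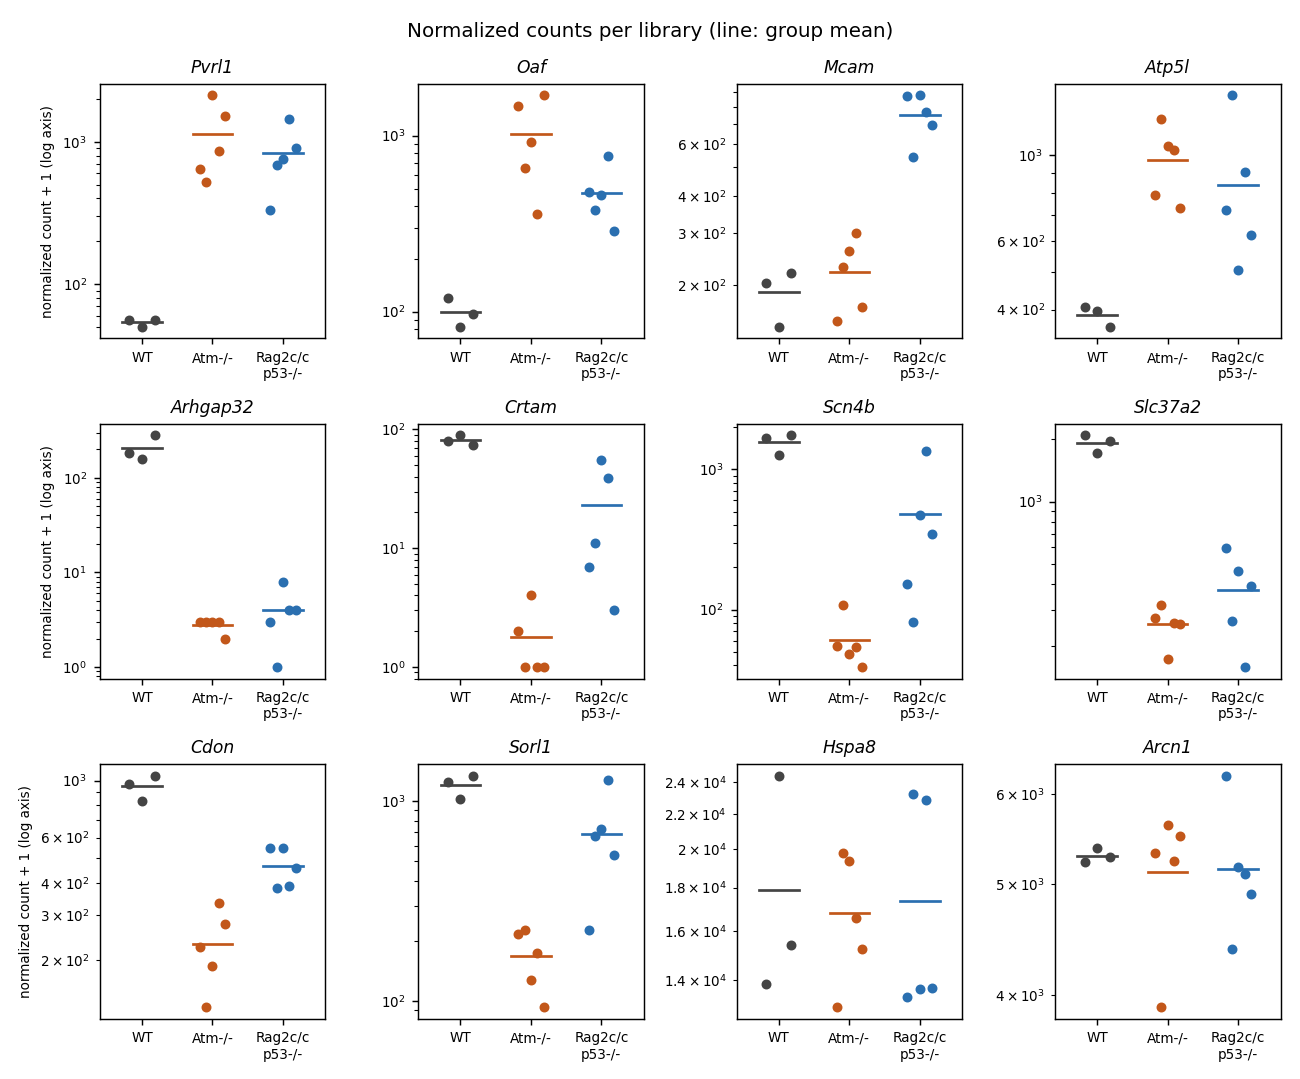
Normalized count plus 1 (vertical log axis) of 12 members in each library, with 1 point for each WT thymus (grey, n = 3), Atm-/- lymphoma (orange, n = 5) and Rag2c/c p53-/- lymphoma (blue, n = 5) and a line at the group mean, each panel with its own axis. Pvrl1, Oaf and Atp5l lie above WT thymus in all 10 lymphomas and Arhgap32, Slc37a2 and Cdon under it, Mcam is high in Rag2c/c p53-/- lymphomas at 540 to 878, and Hspa8 and Arcn1 overlap between the groups.

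Per length, the most abundant members over all 13 libraries were Thy1, Hspa8 (4013 normalized counts per kb of exon), Rps25 (2607), Sidt2 (1007), Dcps (944), Ddx6 (793), Tbrg1 (760.2), Srpr (729.7), Hyou1 (616) and Rnf26 (554). Of these 10 only Ddx6 was called against WT thymus with all libraries in the fit.

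Within groups, members spread about as much as other genes. The median range between the libraries of a group, on the log2 scale, was 0.27 over members in WT thymus (all tested genes 0.31), 0.96 in Atm-/- lymphomas (1.07) and 1.2 in Rag2c/c p53-/- lymphomas (1.21). Of the 76 members with a mean of at least 50 in Atm-/- lymphomas the widest ranges were those of Mpzl2 (3 to 980), Tagln (17 to 414), Scn2b (64 to 1471), Trim29 (9 to 146) and Phldb1 (62 to 769). Of the 81 such members in Rag2c/c p53-/- lymphomas they were those of Mpzl2 (0 to 447), Nrgn (4 to 631), Pdzd3 (9 to 551), Fxyd2 (3 to 172) and Cxcr5 (10 to 409). The libraries that hold the extremes differ from gene to gene. Mpzl2 and Tagln were highest in Atm-/- lymphoma 4, Scn2b in 2, Trim29 in 3 and Phldb1 in 1.

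**Figure D3:**
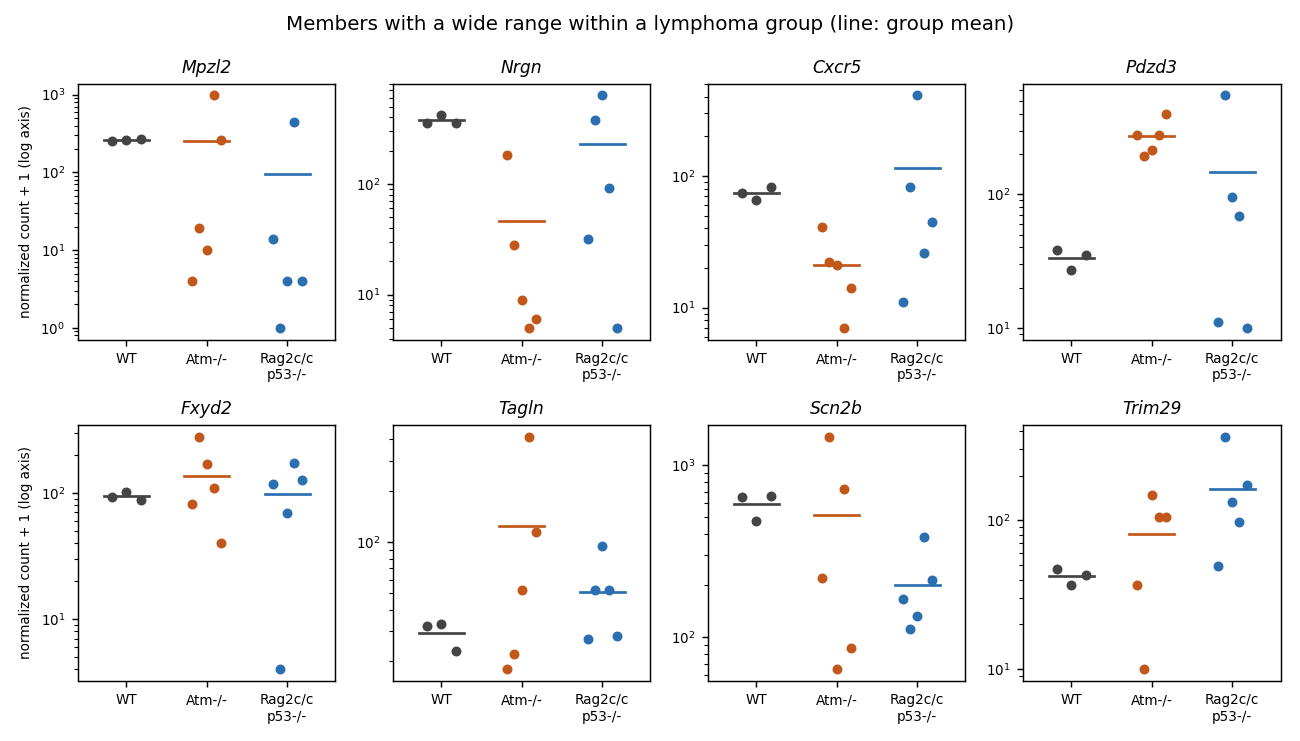
Normalized count plus 1 (vertical log axis) of 8 members with a wide range within a lymphoma group, with 1 point for each WT thymus (grey, n = 3), Atm-/- lymphoma (orange, n = 5) and Rag2c/c p53-/- lymphoma (blue, n = 5) and a line at the group mean, each panel with its own axis. The WT thymuses lie close together in each panel, whereas Mpzl2 spans 3 to 980 and Nrgn 4 to 182 among Atm-/- lymphomas.

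Some calls also rest on which libraries and groups are fitted together. With the 3 shallowest libraries left out together, calls were lost in Atm-/- lymphomas for Pate2, Nrgn and Fxyd6 (adjusted p = 0.055 to 0.064) and for Hinfp and Dnajb1 (log2 -0.99 and -0.98). Those lost in Rag2c/c p53-/- lymphomas were Gramd1b, Crtam and Hspa1a (adjusted p = 0.058 to 0.12) and Atp5l (log2 0.82). Those lost between the lymphoma groups were Crtam, Ddx25, Spa17 and Ccdc153 (adjusted p = 0.053 to 0.12) and Cdon (log2 -0.94). Gained were Prdm10, Siae and Rps25 in Atm-/- lymphomas (log2 -1.31, -1.02 and 1.05) and Pdzd3 between the lymphoma groups (log2 3.29). When only the groups compared were fitted, Nlrx1 was lost in Rag2c/c p53-/- lymphomas (adjusted p = 0.051), as were Ddx25, Spa17 and Ccdc153 between the lymphoma groups (adjusted p = 0.063 to 0.071). Prdm10 and Cxcr5 were then gained in Atm-/- lymphomas, and St14, Ubash3b, Tecta, Trim29, Mpzl2 and Scn2b in Rag2c/c p53-/- lymphomas (adjusted p = 0.0084 to 0.049). A pseudocount of 4 added St14 in both lymphoma groups and Tecta in Rag2c/c p53-/- lymphomas (adjusted p = 0.023 to 0.032), and recomputed size factors added St14 in Atm-/- lymphomas (adjusted p = 0.049).

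Along the chromosome, the olfactory receptor cluster from 37711348 to 40188094 parts 28 members on its proximal side, Snx19 to Tbrg1, from 62 on its distal side, Zfp202 to Bud13, and 2 members, Vwa5a and Olfr920, lie within it. On the proximal side 1 member was higher (3.57%) and 6 were lower (21.4%) in Atm-/- lymphomas, and 2 (7.14%) and 3 (10.7%) in Rag2c/c p53-/- lymphomas. On the distal side the counts were 9 (14.5%) and 11 (17.7%), and 8 (12.9%) and 7 (11.3%), where the shares of all tested genes were 12.6% and 17.0%, and 9.77% and 13.9%. The median log2 difference from the WT mean over the proximal members was -0.54, -0.79, -0.38, -0.49 and -0.44 in Atm-/- lymphomas, and over the distal members -0.15, -0.24, 0.04, -0.02 and -0.12. The medians in Rag2c/c p53-/- lymphomas were 0.01, -0.18, -0.30, -0.22 and -0.45 on the proximal side and 0.10, 0.04, -0.03, 0.30 and -0.10 on the distal side. In each of the 10 lymphomas, and in WT thymuses 1 and 2, the proximal median was the lower one. The same median over all tested genes was between -0.05 and 0.02 in every library. These are descriptions of neighbouring genes, which were not tested as a group. Neighbours also differ in direction. Pvrl1 and Oaf, both higher, lie between Tecta, which was lower in Atm-/- lymphomas, and Usp2, which was higher, and in Atm-/- lymphoma 2 Scn4b was at 107 and its relative Scn2b at 1471, where WT thymus was at 1260 to 1744 and 474 to 659.

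Markers of the T lineage were present in every lymphoma, and in most their sum lay under the lowest thymus. The sum of 8 T lineage markers was 156481 to 237965 in WT thymus, 121040 to 154887 in Atm-/- lymphomas and 123443 to 163995 in Rag2c/c p53-/- lymphomas, with Tcf7 the most abundant gene and none at 0. Of the 8, Bcl11b and Cd8a were lower in Atm-/- lymphomas and Ptprc in Rag2c/c p53-/- lymphomas. Cd4, which was not called, was at 1201 in Atm-/- lymphoma 4 and at 19831 to 30705 in WT thymus. Of 6 myeloid markers 4 were higher in Atm-/- lymphomas and 2 in Rag2c/c p53-/- lymphomas. Their sum, with Lyz2 the most abundant in each library, was 3359 to 3709 in WT thymus, 6330 to 10806 in Atm-/- lymphomas and 3688 to 7684 in Rag2c/c p53-/- lymphomas. The part of these cells in the members' values was not tested.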

How the data were processed

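The authors mapped reads with STAR 2.4.0g1 to GRCm38, removed duplicates with Picard, counted unique reads on Ensembl release 78 genes and normalized the counts with DESeq2 1.6.3, as the submitters' processing notes and the study's methods for the WT libraries state. The deposited values are normalized counts rounded to whole numbers, a score and not raw counts, so no count model was run. The strand setting of the counting is not given in the sources used here, so the 22 members that share exon bases with an expressed gene on the other strand may hold its reads. The table's 26 further columns hold the authors' group means and comparisons and were not used.

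Here all 13 libraries entered 1 limma model (version 3.58.1, R 4.3.3) of 3 groups on log2(value + 1), with robust moderation and a trend of variance with level, over the 15872 genes that reach 10 in 3 or more libraries. Benjamini-Hochberg adjustment ran over all of them. Calls needed an adjusted p under 0.05, a log2 fold change of 1 or more in size and a mean of 10 or more in either group. Depth was estimated from the step of low values, and values per kb are divided by exon length. The comparison of Atm-/- lymphomas with WT thymus was also tested on simulated data of 15075 tested genes. There 65 of 99 genes set to change by a log2 of 1.5 were called, and 69 of 101 set to change by 2. Among the others 7 were called. Far more genes differed in the deposited values, where 12.6% were called higher and 17.0% lower. Their spread was also unequal, with a median SD on the log2 scale of 0.16 for WT thymus and 0.44 for Atm-/- lymphomas. The simulated shares were not shown to hold for such data, so no rate of missed or false calls is drawn from them. Replicates of a group correlated but did not repeat each other's values, and all 13 were kept.

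The naming rule took the called members (at most 15 a direction), the 10 with the highest mean, those nearest the rule's thresholds, up to 4 by level in roles without a call, and the 5 with the widest range in each lymphoma group. Other members are named to complete the roles and were chosen after their values were seen. The members and lists were chosen with earlier results of these data known. Alternatives changed the scaling, the filter, the moderation, the pseudocount, the fold change threshold, the number of groups fitted together and the libraries. Some results, among them those of 1 member and of 1 set of cell type markers, are not reported here, while counts over the 92 members in the report include that member.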

Additional observations from a re-analysis of the deposited data

Results flagged for a closer look

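Of 98 groups looked at, the 2 lymphoma groups for each of 49 members, 19 had a library whose gap to the nearest other library was a larger share of the group's whole range than Dixon's 95% critical value, 17 with a high and 2 with a low library. Some of these members were named for their wide range, so the share of groups with such a library is not to be set against chance. Rag2c/c p53-/- lymphoma 2, the shallowest library, held 5 of them. It was at 3840 for Tbrg1 (others 1915 to 2375), 551 for Pdzd3 (9 to 95), 13188 for Rps25 (4988 to 6957), 729 for Tmprss4 (103 to 230) and 476 for BC049352 (46 to 87). The spans of Tmprss4 and BC049352 overlap, so these flags may not be separate. Rag2c/c p53-/- lymphoma 4 was at 1346 for Usp2 (788 to 925), 447 for Mpzl2 (0 to 13) and 182 for Amica1 (21 to 34), and lymphoma 3 was at 409 for Cxcr5 (10 to 81).

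Atm-/- lymphoma 4 was at 980 for Mpzl2 (3 to 262), 414 for Tagln (17 to 114) and 36 for Ttc36 (9 to 16). Atm-/- lymphoma 2 was low for Arcn1 at 3900 (5238 to 5636), and high for Scn4b at 107 (38 to 54). Atm-/- lymphoma 3 was at 31 for Ddx25 (3 to 11) and 516 for Ccdc153 (46 to 106). Atm-/- lymphoma 1 was at 182 for Nrgn (4 to 27) and 128 for Bace1 (38 to 60). Atm-/- lymphoma 5 was at 1 for Arhgap32 where the others were at 2, a difference of the size of rounding.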

How the results depend on the processing

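Of the 54 calls of 49 named members, 32 were kept under each of 22 alternatives, 2 were kept wherever tested but fell under the filter in some, 20 were lost under at least 1, and 0 changed sign. Of 93 comparisons of these members without a call, 26 gained one. Leaving out 1 library at a time gave 7 to 11 members higher and 12 to 19 lower in Atm-/- lymphomas, 8 to 12 higher and 3 to 13 lower in Rag2c/c p53-/- lymphomas, and 0 to 2 higher and 7 to 11 lower in Atm-/- than in Rag2c/c p53-/- lymphomas. Without the fold change threshold 18 members were higher in Atm-/- lymphomas, and 16 were higher and 18 lower in Rag2c/c p53-/- lymphomas, since fewer conditions then apply. Of all tested genes 21.0%, 17.5% and 19.7% had an adjusted p under 0.05 in these directions. At that adjusted p 25 members were lower in Atm-/- lymphomas (23.6% of tested genes). Between the lymphoma groups 0 were higher (5.13% of tested genes) and 11 lower (6.48%) in Atm-/-. With the 3 shallowest libraries left out together, 1 member was higher and 5 were lower in Atm-/- than in Rag2c/c p53-/- lymphomas, and the cause was not tested. Over all tested genes this fit gave 1138 calls between the lymphoma groups, both directions together, against 1244 with all libraries. Calls of cell type markers were not recomputed. No paired analysis was possible because replicate numbers only name the libraries of different mice. Depth limits the low members, since 1 read is worth up to 3.38.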
